A study of Oryza sativa with 12 samples.

Results

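The autophagy genes described here are the 28 nuclear loci whose symbol in the deposited tables begins with ATG and a digit, with or without the rice prefix Os and in any case. They were picked out of 37849 nuclear loci on the 12 rice chromosomes by name, with earlier results of these data known. Polysome-bound, polyadenylated RNA of rice leaf had been sequenced from 4 groups of 3 libraries, namely APO drought, APO control, IR64 drought and IR64 control. APO is the cultivar the series calls tolerant and IR64 the one it calls susceptible, both of the Indica kind, and drought was given as 50% without a duration or plant age. The labels name 3 replicates per group and do not say whether these came from separate plants, so p-values measure the spread between libraries, which may be technical. Polysome-bound mRNA is mRNA loaded with ribosomes, and since no total mRNA was analysed here, a change in transcript amount and a change in ribosome loading cannot be told apart. In leaf tissue, fewer cells of a type and less RNA per cell cannot be told apart either.

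Autophagy is the route by which a cell encloses part of its own cytoplasm in a double membrane, the autophagosome, and delivers it to the vacuole for breakdown. A kinase complex of ATG1 and ATG13 starts it, a lipid kinase complex that contains ATG6 marks the membrane, and ATG9 and the ATG18 propeller proteins help supply membrane. A pair of ubiquitin-like systems follows. ATG7 activates both ATG12, which is joined to ATG5 with the help of ATG10 and works with ATG16, and ATG8, which is cut by ATG4 and joined to a membrane lipid with the help of ATG3. In rice, loss of ATG7 is known to impair pollen development and the recycling of leaf nitrogen.

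Levels are given as nuclear-scaled TPM, meaning the deposited TPM (a transcript abundance corrected for gene length and library size) rescaled so that the nuclear loci of each library sum to 1000000. The rescaling was needed because nuclear loci held 1.21 to 83.3% of the deposited TPM. APO drought 1 (1.21%) and APO control 3 (5.04%) lay below 10% and were left out of the tests, which therefore used 10 libraries, with 2 on each side in APO and 3 on each side in IR64. Their values are still shown. The library labelled APO drought 1 went against its cultivar label: of 17 genes that stood at 8 or more nuclear-scaled TPM throughout the other APO libraries of the tests and at least 8 times above IR64, 0 were above 1 in it, while 12 of 17 IR64-typical genes were. In APO control 3 all 17 APO-typical genes were above 1, and so were 10 of the 17 IR64-typical genes. The IR64 control libraries differed from each other, with the clock gene CCA1 at 1.91 nuclear-scaled TPM in IR64 control 3, against 636 and 953 in IR64 control 1 and 2. CCA1 was 1.63 to 6.01 in the APO control libraries and 2.60 to 82.6 in the drought libraries. By this gene IR64 control 1 and 2 were the libraries unlike all others. No read counts were used here, so depth is known only as coverage, the mean number of reads over each base of a gene. The median autophagy gene had a coverage of 0.229 in the library labelled APO drought 1 and 0.591 in APO control 3. In the 10 libraries tested that median was 1.03 to 52.6, lowest in IR64 drought 3, APO drought 2 and IR64 drought 1 (1.03, 2.02 and 2.58).

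The 28 genes fall into 13 families and lie on all 12 chromosomes, with gene spans of 1632 to 7415 bp. The closest neighbours, ATG6C and OsATG1a on chromosome 3, are 525.2 kb apart, so no locus overlapped another of the set. ATG18 had 6 members, ATG8 had 4 and ATG6 had 3, another 5 families had 2 members each and the remaining 5 had 1. In the 10 libraries, 20 genes were above 0 everywhere and 8 were listed at 0 at least once, each of these averaging under 10 nuclear-scaled TPM. Averaged over the 10 libraries, Atg8 (Os07g0512200, written without a letter in the tables; chromosome 7, 19625525 to 19628225) stood at 342 nuclear-scaled TPM and OsATG8c (Os08g0191600; chromosome 8, 5364394 to 5366465) at 258. These 2 genes for the ubiquitin-like protein of the autophagosome membrane were the only members above 100. A further 17 members averaged 10 to 100, and 9 averaged under 10. Ordered by mean level, neighbours overlapped in their ranges over the 10 libraries at every step except 1, between OsATG8c and OsATG18f, the next gene down. The coordinates are those of the deposited tables, whose genome build is not given in the sources used here.

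**Figure D1:**
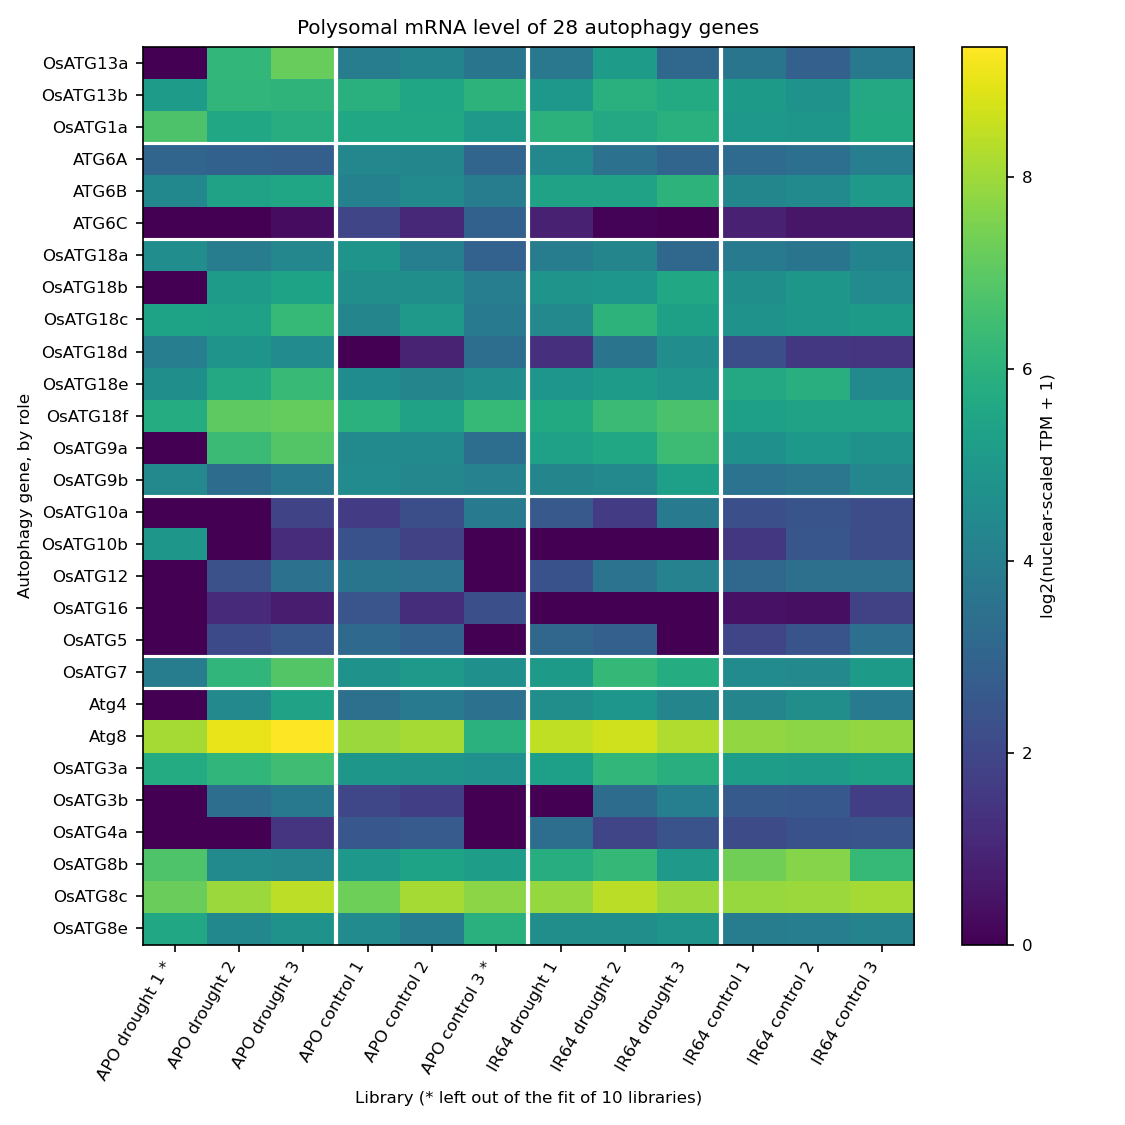
Level of each of the 28 autophagy genes in each of 12 libraries, as log2(nuclear-scaled TPM + 1), with genes in rows grouped by role and libraries in columns from APO drought at the left to IR64 control at the right. Atg8 and OsATG8c form the brightest rows, and the asterisks mark the 2 libraries left out of the tests, where 11 and 5 genes were listed at 0.

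The first question was what drought did to these genes in APO. In the 10-library test 27 genes could be tested, all but ATG6C, whose mean of 0.69 nuclear-scaled TPM was below the minimum of 1. With limma and Benjamini-Hochberg adjustment over all 22812 genes tested, 7 of the 27 rose at an adjusted p below 0.05 and 0 fell, while 6.8% of all genes tested rose and 7.6% fell. At an unadjusted p below 0.05 there were 13 members (48.1%), 10 higher in drought and 3 lower, beside 30.4% of all genes. The 7 covered the starting kinase complex (OsATG13a), membrane supply (OsATG9a, OsATG18d and OsATG18f), the shared activating enzyme (OsATG7), and the ATG8 arm (OsATG3a and Atg8). The median log2 difference, drought minus control, was 0.50 over the 27 genes and -0.24 over all genes tested, and 17 of the 27 were above 0, against 43.4% of all genes. These 7 calls rest on 2 libraries a side. With all 12 libraries 0 of the 28 were called, both in nuclear-scaled TPM (3.03% of genes called in either direction, lowest adjusted p among the members 0.121, 6 at an unadjusted p below 0.05) and in deposited TPM (0.462%, 0 of 26, 1 at an unadjusted p below 0.05). With the library labelled APO drought 1 added alone the count was also 0 (1.79% of all genes called), and with APO control 3 added alone it was 5 (11.6%). Within the 10 libraries, leaving out APO control 1 or APO control 2 gave 0 calls, where 4.52 and 5.01% of all genes were called in either direction, against 14.4% with all 10. Leaving out APO drought 2 gave 1 (5.68% of all genes), and leaving out IR64 control 1 or IR64 control 2 gave 3 (11.3 and 12.1%). Leaving out APO drought 3 gave 2 (15.7%), of which OsATG9a was higher and OsATG10b lower (-2.08, adjusted p = 0.0456).

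**Figure D2:**
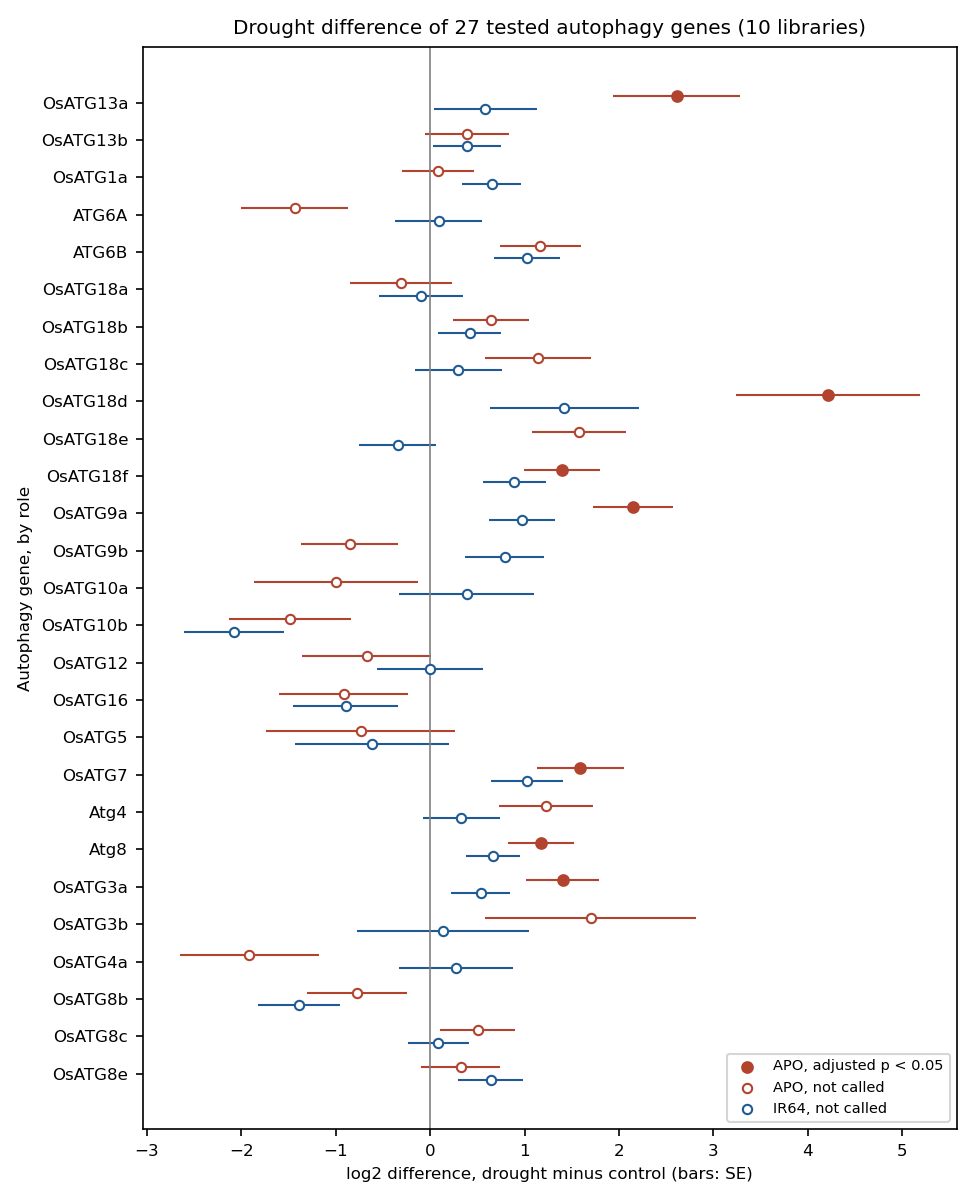
Drought minus control log2 difference of each of 27 autophagy genes in APO (upper mark of each row) and IR64 (lower mark), with bars of 1 standard error from the 10-library test. Filled marks are the 7 APO genes with an adjusted p below 0.05, all to the right of 0 in this test, although OsATG18f stood at -0.02 in deposited TPM of 12 libraries and OsATG9a at -0.05 once the library labelled APO drought 1 was added. No IR64 mark is filled.

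Among the genes that start autophagy, OsATG13a (Os02g0644500; chromosome 2, 25912967 to 25916723), the partner and substrate of the ATG1 kinase, had 72.3 and 143 nuclear-scaled TPM in APO drought 2 and 3, against 14.3 and 17.4 in APO control 1 and 2. Both drought libraries lay far above both control libraries. In the libraries left out it was listed at 0 in the one labelled APO drought 1 and at 11.4 in APO control 3. The difference was 2.61 ± 0.67 on the log2 scale (SE, n = 2 and 2, limma adjusted p = 0.0267). Its paralog OsATG13b had 70.7 and 66.9 nuclear-scaled TPM in APO drought 2 and 3 and 61.0 and 44.5 in APO control 1 and 2, a log2 difference of 0.39 ± 0.44 that did not pass (adjusted p = 0.578). OsATG1a, the kinase itself, had 46.3 and 55.7 in APO drought 2 and 3 and 47.7 and 48.0 in APO control 1 and 2, the log2 difference nearest to 0 of all 27 genes (0.08 ± 0.38, adjusted p = 0.909). Of the 3 genes of this complex, 1 was called in APO.

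OsATG9a (Os03g0248000; chromosome 3, 7819901 to 7827315) encodes the membrane protein that travels in vesicles to the growing autophagosome, and it had the lowest adjusted p of the set. Its level was 81.0 and 115 nuclear-scaled TPM in APO drought 2 and 3, against 21.4 and 20.5 in APO control 1 and 2. The groups were far apart, at a mean of 98.0 ± 24.0 in APO drought and 21.0 ± 0.662 in APO control (SD, n = 2 each). The log2 difference was 2.15 ± 0.43 (limma adjusted p = 0.00840), but the library labelled APO drought 1 listed the gene at 0, and with that library added the difference was -0.05. Its paralog OsATG9b had 8.99 and 13.1 nuclear-scaled TPM in APO drought 2 and 3, against 22.0 and 18.9 in APO control 1 and 2, a log2 difference of -0.85 ± 0.51 (adjusted p = 0.290).

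OsATG18d (Os05g0169200; chromosome 5, 4144983 to 4148965) is a member of the family of propeller proteins that bind the lipid mark, and it had the largest difference of the 27 genes. It stood at 15.0, 27.9 and 21.8 nuclear-scaled TPM in APO drought 1, 2 and 3, against 0, 0.913 and 9.53 in APO control 1, 2 and 3. All 3 drought libraries were above all 3 control libraries, the 2 left-out ones included. Its coverage was only 0.197 in the library labelled APO drought 1, which went against its cultivar label, and 0.425 in APO control 3. The log2 difference was 4.22 ± 0.97 (limma adjusted p = 0.0170, n = 2 and 2), a value that depends on the pseudocount because the gene was listed at 0 in APO control 1, where the median member had a coverage of 4.45. OsATG18f (Os05g0405900; chromosome 5, 19768783 to 19775018) is the third most abundant member, and it had 130 and 141 nuclear-scaled TPM in APO drought 2 and 3, against 62.5 and 41.0 in APO control 1 and 2. It rose by 1.40 ± 0.40 on the log2 scale (adjusted p = 0.0433) in the 10 libraries, while APO control 3, at 75.6, was above the library labelled APO drought 1, at 54.8, and the difference in deposited TPM of 12 libraries was -0.02. OsATG18e (Os01g0786900), at 49.3 and 78.3 in APO drought 2 and 3 and at 22.5 and 17.9 in APO control 1 and 2, narrowly missed the threshold (1.58 ± 0.50, adjusted p = 0.0582). The other 3 ATG18 genes ran from -0.31 (OsATG18a) to 1.14 (OsATG18c) and were not called.

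OsATG7 (Os01g0614900; chromosome 1, 24380637 to 24386666), the single activating enzyme of both conjugation systems, had 70.7 and 114 nuclear-scaled TPM in APO drought 2 and 3, against 26.4 and 32.0 in APO control 1 and 2. Drought exceeded control in both libraries, while the left-out libraries stood at 14.3 in the one labelled APO drought 1 and 25.1 in APO control 3. It rose by 1.59 ± 0.47 on the log2 scale (limma adjusted p = 0.0446, n = 2 and 2). OsATG3a (Os01g0200000; chromosome 1, 5413595 to 5416778), the enzyme that passes ATG8 to the lipid, had 52.6, 69.9 and 87.9 in APO drought 1, 2 and 3, against 30.3, 27.7 and 25.5 in APO control 1, 2 and 3. Its log2 difference was 1.40 ± 0.39 in the 10 libraries (adjusted p = 0.0357). As with OsATG18d, the 3 libraries labelled APO drought were above all 3 APO control libraries. Among them the library labelled APO drought 1 went against its cultivar label. The coverage of OsATG3a was only 0.694 in that library and 1.14 in APO control 3. With the left-out libraries counted, OsATG18c and OsATG18e were also higher in APO drought without overlap, while OsATG16, ATG6A and ATG6C were lower without overlap. The share of all genes that separated in this way was not computed.

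**Figure D3:**
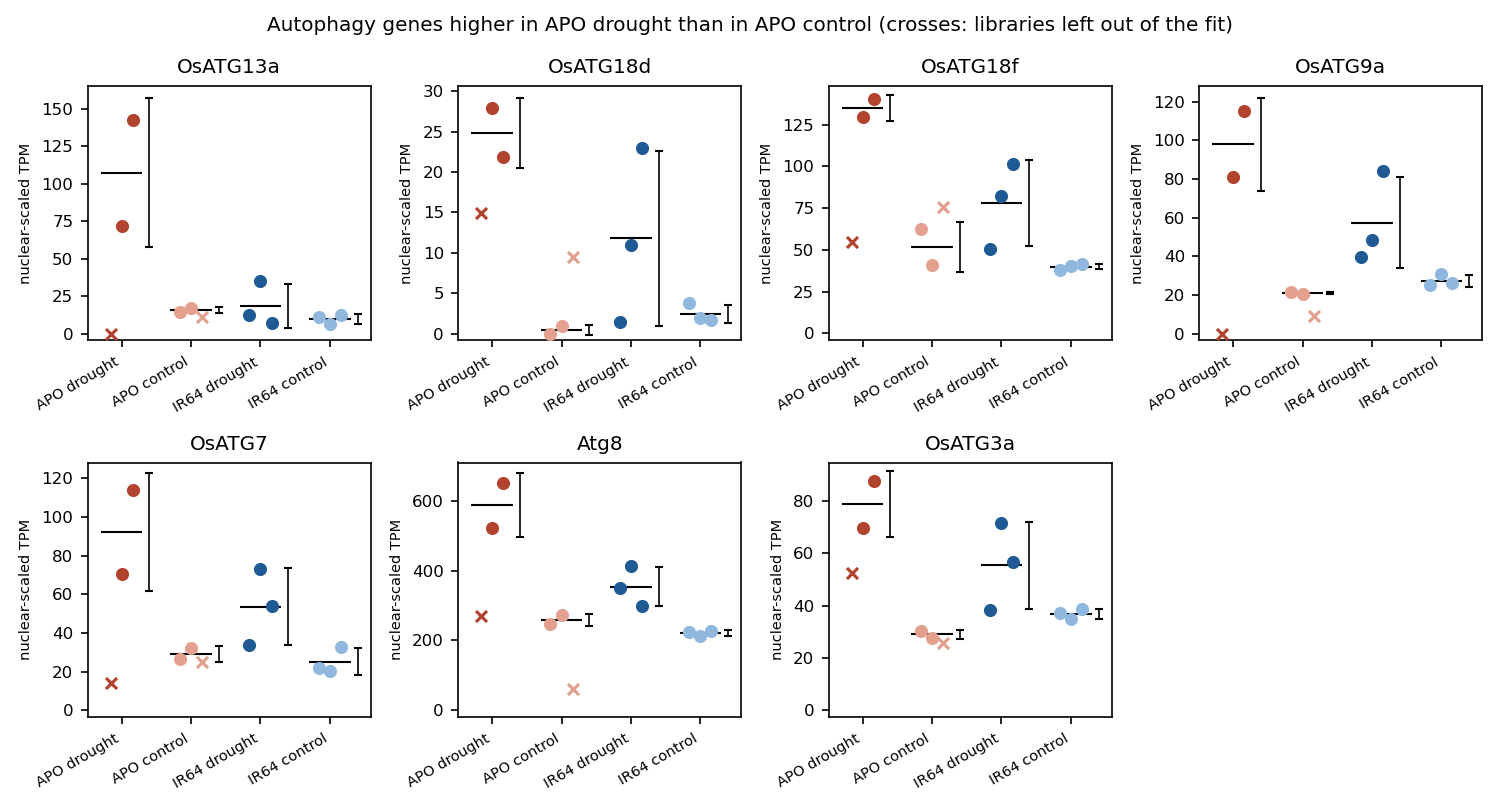
Nuclear-scaled TPM of the 7 autophagy genes that rose in APO in the 10-library test, by group, with each library as a point, the group mean as a line and its SD as a bar at the side; crosses are the 2 APO libraries left out and enter neither mean nor SD. In APO the tested drought libraries lie above the tested control libraries in all 7 panels, an order largely set by choosing genes called higher in this comparison. With OsATG18f at -0.02 in deposited TPM of 12 libraries and OsATG9a at -0.05 with the left-out drought library, that order does not hold in every form of the data. Among all members the tested APO drought libraries lay above the tested control libraries in 14 and below them in 9, and the share over all genes was not computed.

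The ATG8 family carries the cargo side of the pathway, since ATG8 on the membrane binds the receptors that bring material in. Its 4 paralogs together made up 45.0 to 61.7% of the summed level of all 28 genes in the 12 libraries. Atg8 had 523 and 653 nuclear-scaled TPM in APO drought 2 and 3, against 247 and 272 in APO control 1 and 2. It rose by 1.17 ± 0.35 on the log2 scale (limma adjusted p = 0.0479, n = 2 and 2), the smallest change among the 7 genes called. With the left-out libraries the groups touched, as the library labelled APO drought 1 stood at 270, while APO control 3 stood at 61.7.

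OsATG8c had 245 and 345 nuclear-scaled TPM in APO drought 2 and 3, against 156 and 269 in APO control 1 and 2. The groups overlapped and the log2 difference was 0.50 ± 0.40 (limma adjusted p = 0.417). OsATG8e (Os11g0100100; chromosome 11, 1180 to 4230) had 19.5 and 26.1 in APO drought 2 and 3, against 21.5 and 14.7 in APO control 1 and 2, again overlapping (0.32 ± 0.42, adjusted p = 0.634). In the library labelled APO drought 1 and in APO control 3, OsATG8c stood at 146 and 209 and OsATG8e at 48.1 and 59.5. OsATG8b (Os04g0624000; chromosome 4, 31716399 to 31719152) went the other way without passing the test, at 21.5 and 19.3 in APO drought 2 and 3 and 30.4 and 41.5 in APO control 1 and 2 (-0.77 ± 0.53, adjusted p = 0.351). The library labelled APO drought 1 listed OsATG8b at 109, above every other APO library, and nearer to the IR64 control values of 75.5 to 199.

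As shares of the ATG8 sum, Atg8 made up 64.7 and 62.6% in APO drought 2 and 3, against 54.3 and 45.5% in APO control 1 and 2. In the left-out libraries it made up 47.1% in the one labelled APO drought 1, within the range of APO control, and 16.8% in APO control 3, while OsATG8b made up 19.1 and 10.1% there. In IR64 it made up 49.1 to 52.7% in the 3 drought libraries, against 31.7 to 38.4% in the 3 control libraries. The OsATG8b share was 5.23 to 8.70% in IR64 drought, against 12.8 to 29.7% in IR64 control. These shares do not depend on how a library is scaled, since all 4 genes come from the same library, and they are given without a test. In IR64 neither gene's share overlapped between drought and control.

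**Figure D4:**
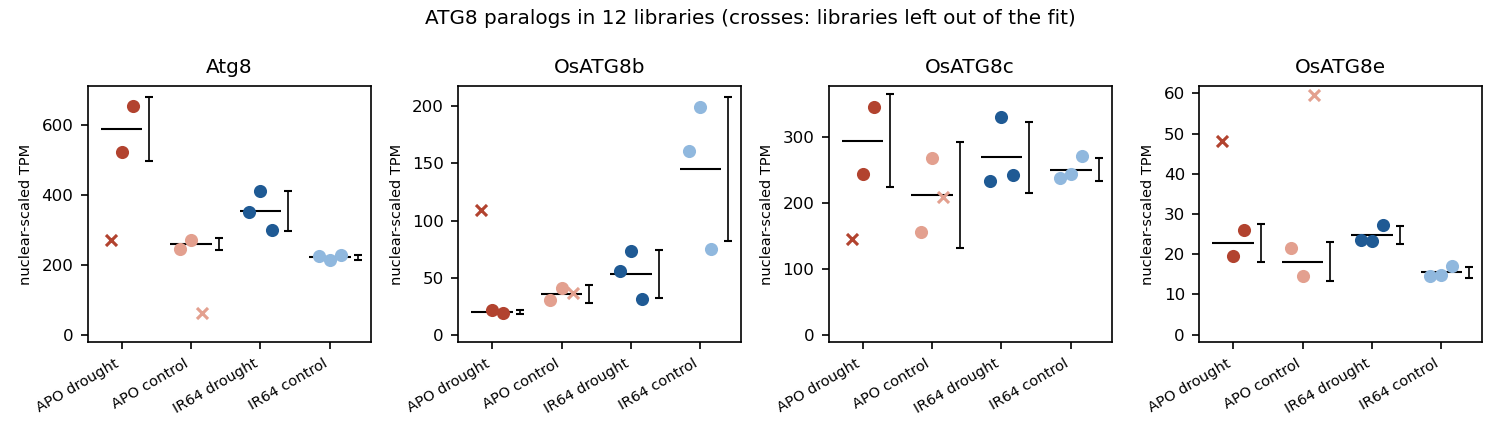
Nuclear-scaled TPM of the 4 ATG8 paralogs by group, with points for libraries, lines for means, side bars for SD and crosses for the 2 libraries left out. Atg8 reaches 523 and 653 in APO drought 2 and 3, OsATG8b is highest in IR64 control, at 160, 199 and 75.5, and OsATG8c shows no separation between groups.

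Atg4, a protease that trims ATG8, had 20.2 and 40.8 nuclear-scaled TPM in APO drought 2 and 3, against 9.81 and 13.9 in APO control 1 and 2. Of the left-out libraries, the one labelled APO drought 1 listed it at 0 and APO control 3 had 10.6, and its log2 difference did not pass (1.23 ± 0.50, limma adjusted p = 0.125). In IR64 it had 23.7, 28.8 and 18.1 in drought, overlapping the 18.2, 23.6 and 14.0 of control.

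The 5 genes that serve only the ATG12 arm (OsATG5, OsATG10a, OsATG10b, OsATG12 and OsATG16) had log2 differences of -1.48 to -0.67 in APO, all below 0 in the 10 libraries, and 0 of the 5 were called. In nuclear-scaled TPM of 12 libraries OsATG10b stood at 0.67 instead. OsATG16, whose product anchors the ATG5 conjugate, was the least abundant gene tested, at 1.20 and 0.67 nuclear-scaled TPM in APO drought 2 and 3 and 4.59 and 1.33 in APO control 1 and 2; it was listed at 0 in all 3 IR64 drought libraries and at 0.38, 0.30 and 2.56 in IR64 control 1, 2 and 3. OsATG10b, an enzyme of the ATG12 arm, was listed at 0 and 1.3 in APO drought 2 and 3 and at 4.10 and 2.53 in APO control 1 and 2. OsATG4a, the paralog of Atg4, was listed at 0 and 1.65 in APO drought 2 and 3 and at 4.82 and 5.49 in APO control 1 and 2 (log2 difference -1.92 ± 0.73, limma adjusted p = 0.109). In IR64 OsATG4a had 9.50, 2.89 and 4.29 in drought and 3.39, 4.12 and 4.42 in control, and the groups overlapped. In the library labelled APO drought 1 and in APO control 3, OsATG16 was listed at 0 and 3.90, OsATG10b at 30.3 and 0, and OsATG4a at 0 in both. At levels this low, and with a median member coverage of 2.02 in APO drought 2, a 0 does not show that a gene was off.

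Paralogs of the same family were then set against each other within each library. The log2 ratio of OsATG9a to OsATG9b was 3.04 and 3.04 in APO drought 2 and 3, against -0.04 and 0.11 in APO control 1 and 2, while in IR64 it was 1.07 to 1.20 in drought and 0.45 to 1.27 in control. The ratio of Atg4 to OsATG4a was 4.40 and 3.98 in APO drought 2 and 3, against 0.89 and 1.20 in APO control 1 and 2, where the value of APO drought 2 is set by the added 1 because OsATG4a was listed at 0 there. For OsATG13a over OsATG13b it was 0.03 and 1.08 in APO drought 2 and 3, against -2.01 and -1.30 in APO control 1 and 2. The ratios were taken after adding 1 to each level, so they depend on the scaling and, where a gene is at or near 0, mostly on the added 1. For ATG6, the lipid kinase subunit also known as beclin, ATG6B over ATG6A was 2.48 and 2.69 in APO drought 2 and 3, against -0.23 and 0.19 in APO control 1 and 2, though neither gene alone was called (ATG6B 1.17 ± 0.43, adjusted p = 0.0925; ATG6A -1.43 ± 0.56, adjusted p = 0.115). In IR64 the ATG6B to ATG6A ratio was 1.03, 1.86 and 2.97 in drought, touching the 1.01 to 1.03 of control. OsATG3a over OsATG3b was 2.78 and 2.70 in APO drought 2 and 3, and 2.99 and 3.09 in APO control 1 and 2. For OsATG10a over OsATG10b no APO shift can be read, since both genes were listed at 0 in APO drought 2. In IR64 that ratio was 2.60, 1.63 and 3.81 in drought, against 0.75, -0.10 and 0.01 in control, without overlap, with OsATG10b listed at 0 in all 3 drought libraries. The ratios were computed after the levels were known and are given as a description without a test.

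In the left-out libraries 3 of the 4 pairs whose ratio was higher in APO drought 2 and 3 had the opposite order. OsATG9a over OsATG9b was -4.39 in the library labelled APO drought 1, against -0.77 in APO control 3. Atg4 over OsATG4a was 0 in the library labelled APO drought 1, where both were listed at 0, against 3.53 in APO control 3. OsATG13a over OsATG13b was -5.14 in the library labelled APO drought 1, against -2.42 in APO control 3. Among these 4, ATG6B over ATG6A alone kept its order, at 1.34 in the library labelled APO drought 1, against 0.91 in APO control 3. OsATG3a over OsATG3b, which separated the other way with lower ratios in APO drought 2 and 3, also changed order. It was 5.74 in the library labelled APO drought 1, against 4.73 in APO control 3, with OsATG3b listed at 0 in both.

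**Figure D5:**
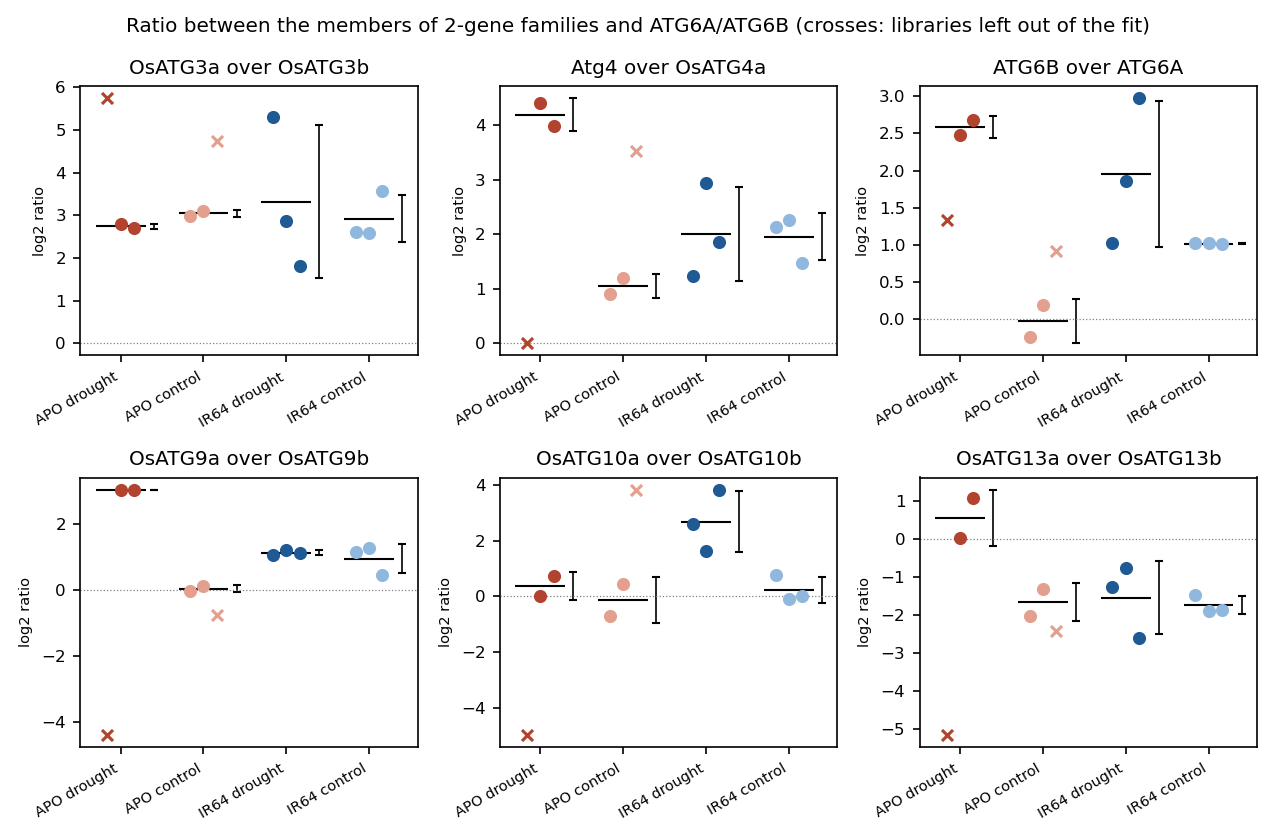
Log2 ratio of nuclear-scaled TPM plus 1 between paired autophagy paralogs by group, with points for libraries, lines for means, side bars for SD and crosses for the 2 libraries left out. The 2 tested APO drought libraries are above the 2 tested APO control libraries for OsATG9a over OsATG9b, Atg4 over OsATG4a, ATG6B over ATG6A and OsATG13a over OsATG13b, and the IR64 groups overlap in these 4 pairs. Groups of 2 libraries separate more easily than the groups of 3 in IR64, so this contrast does not show a shift particular to APO. In 3 of the 4, all but ATG6B over ATG6A, the left-out libraries have the opposite order, and ratios with a gene at 0 are set by the added 1.

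In IR64 the same question gave 0 of 27 genes called in either direction with limma on 3 libraries a side, where 1.12% of all genes rose and 0.307% fell. At an unadjusted p below 0.05 there were 7 members (25.9%), 5 higher in drought and 2 lower, beside 18.4% of all genes. The median log2 difference was 0.39 over the members and 0.16 over all genes tested. In nuclear-scaled TPM 21 of 27 members were above 0, beside 56.3% of all genes. With median-of-ratios scaling 11 of 27 members were above 0, where the median of all genes was -0.21. In deposited TPM of 12 libraries 1 of 26 was above 0, beside 12.0% of all genes, whose median moved to -0.94. With 12 libraries 0 members were called by limma in nuclear-scaled TPM (0.00764% of all genes) and 0 in deposited TPM (2.14%), with 0 and 2 members at an unadjusted p below 0.05.

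OsATG9a had 39.6, 48.3 and 84.1 nuclear-scaled TPM in IR64 drought, against 25.1, 30.6 and 26.3 in IR64 control. All 3 drought libraries were above all 3 control libraries, and the difference was not called (0.97 ± 0.35, limma adjusted p = 0.182). OsATG7 had 33.5, 73.1 and 53.9 in IR64 drought, against 22.1, 20.2 and 32.9 in IR64 control. For OsATG18f the values were 50.7, 82.4 and 101 in IR64 drought and 38.04, 40.6 and 41.4 in IR64 control. These genes showed the same separation of groups as OsATG9a, and so did Atg8, at 350, 412 and 300 in IR64 drought and 225, 213 and 227 in IR64 control. Their adjusted p were 0.191 for OsATG7, 0.192 for OsATG18f and 0.249 for Atg8, so 0 of these passed. The other 3 genes that rose in APO overlapped between the IR64 groups. OsATG13a had 12.4, 35.2 and 7.63 in IR64 drought and 11.3, 6.35 and 12.7 in IR64 control. OsATG18d had 1.43, 10.98 and 23.0 in IR64 drought and 3.77, 1.87 and 1.64 in IR64 control. OsATG3a had 38.2, 71.5 and 56.6 in IR64 drought and 37.0, 34.8 and 38.6 in IR64 control, where only IR64 drought 1 fell within the control range. Among all members, 6 had every IR64 drought library above every IR64 control library and 3 had every one below. The share of all genes that separated in this way was not computed, so the separation is not shown to be particular to these genes. These counts cannot be set against those of APO, where groups of 2 libraries separate more easily.

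OsATG8b had 56.4, 73.1 and 31.5 nuclear-scaled TPM in IR64 drought, against 160, 199 and 75.5 in IR64 control. Every drought library was below every control library (-1.39 ± 0.43, limma adjusted p = 0.144). OsATG8e had 23.5, 23.4 and 27.4 in IR64 drought, against 14.6, 14.8 and 17.2 in IR64 control, also without overlap (0.64 ± 0.34, adjusted p = 0.346). OsATG8c had 234, 331 and 243 in IR64 drought and 238, 244 and 272 in IR64 control, with overlap (0.09 ± 0.32, adjusted p = 0.918). OsATG10b had the lowest adjusted p of the set in IR64, 0.0930. It was listed at 0 in all 3 drought libraries and at 1.86, 4.72 and 3.58 in control, so no fold is given. The outcome in IR64 depended on IR64 control 3, which differed in CCA1 from IR64 control 1 and 2. Leaving it out kept only IR64 control 1 and 2, the libraries unlike all others by CCA1. They had 636 and 953 nuclear-scaled TPM of CCA1, against 2.60 to 28.2 in IR64 drought. Without IR64 control 3 OsATG7 (1.23, adjusted p = 0.0471), ATG6B (1.24, 0.0251) and OsATG1a (0.89, 0.0408) rose and OsATG8b fell (-1.80, 0.00858), while 12.5% of all genes rose and 4.58% fell. The part of the CCA1 difference in these calls was not tested.

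Whether drought acted differently in APO than in IR64 was tested as the difference between the drought effects. Of the 27 genes 0 were called (1.54% of all genes were higher and 3.65% lower), and 5 (18.5%) had an unadjusted p below 0.05, beside 25.0% of all genes. The lowest adjusted p was 0.101, for OsATG18e, with a difference of 1.92 ± 0.64 on the log2 scale. That gene had 29.4, 34.5 and 28.6 nuclear-scaled TPM in IR64 drought, against 48.6, 58.3 and 21.3 in IR64 control, so the lowest of the IR64 control values was again that of IR64 control 3. Without that library OsATG18e was called (2.35, adjusted p = 0.00559), beside 5.57% of all genes called higher and 14.6% lower. The IR64 controls left were then only 1 and 2, the libraries unlike all others by CCA1. The 7 genes that rose in APO had differences between the cultivars of 0.50 (OsATG18f) to 2.79 (OsATG18d), none of them called. A call in APO and none in IR64 therefore does not show that the response of these genes differed between the cultivars. By sign alone, in nuclear-scaled TPM of the 10 libraries, 16 genes were higher in drought in both cultivars, 5 were lower in both, 1 (OsATG18e) was higher in APO and lower in IR64, and 5 were lower in APO and higher in IR64; the IR64 signs changed with the scaling, as given above.

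The cultivars were then compared under the same water regime. Under drought, OsATG13a was the single member called, at 72.3 and 143 nuclear-scaled TPM in APO drought 2 and 3, against 12.4, 35.2 and 7.63 in IR64 drought 1, 2 and 3. Both APO values were above all IR64 values, and the log2 difference, APO minus IR64, was 2.67 ± 0.61 (limma adjusted p = 0.0198). Of all genes 5.66% were called higher in APO and 6.68% lower. The call was lost without APO drought 2, APO drought 3 or IR64 drought 1, in deposited TPM, with all 12 libraries, and with the library labelled APO drought 1 added, which listed OsATG13a at 0. At an unadjusted p below 0.05 there were 6 members (22.2%), below the 30.6% of all genes. In the same comparison 15 of 23 leaf mesophyll markers were lower in APO and 1 higher (median log2 difference -3.17), and in the difference of drought effects 12 of the 23 were lower; their part in the OsATG13a result was not tested. Without IR64 control 3, OsATG8b (-1.27, adjusted p = 0.0370) and OsATG18e (0.99, 0.0474) were called as well, beside 7.74% of all genes higher and 11.4% lower.

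In control plants 0 of 27 members were called between APO and IR64 (0.456% of all genes higher and 0.149% lower), and OsATG8b was the single one with an unadjusted p below 0.05, beside 10.5% of all genes. It had 30.4 and 41.5 nuclear-scaled TPM in APO control 1 and 2, against 160, 199 and 75.5 in IR64 control 1, 2 and 3, and APO control 3 stood at 37.0. All 3 APO control libraries were thus below all 3 IR64 control libraries (log2 difference -1.89 ± 0.48, limma adjusted p = 0.185). Without IR64 control 3 it was called lower in APO (-2.30, adjusted p = 0.00541), as was OsATG18e (-1.36, 0.0257), beside 8.91% of all genes higher and 3.7% lower. That test kept only IR64 control 1 and 2 for IR64, the libraries unlike all others by CCA1.

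Genes around the pathway were followed through lists of symbols chosen with earlier results of these data known. Among all genes tested in APO, 6.8% rose and 7.6% fell. Of 17 tested genes matched as TOR and SnRK1 signalling, 0 rose and 1 fell in APO. That gene was OsTOR, the nutrient-sensing kinase that holds autophagy back in yeast and plants, at 29.0 and 55.4 nuclear-scaled TPM in APO drought 2 and 3, against 127 and 111 in APO control 1 and 2 (-1.54 ± 0.43, limma adjusted p = 0.0365). OsTOR was also lower in APO drought than in IR64 drought, where it stood at 116, 106 and 109 (-1.43 ± 0.39, limma adjusted p = 0.0380). IR64 control had 63.6, 74.4 and 124, so no fall of OsTOR under drought was seen in IR64, where the groups overlapped. The libraries left out did not separate, at 105 in the one labelled APO drought 1 and 88.3 in APO control 3. Of 3 tested genes for endosomal sorting, 0 were called in APO, and of 35 for cargo receptors and the exocyst 0 rose and 2 fell, both of them EXO70 paralogs (OsEXO70FX4 and OsEXO70F4). Falls this few do not set these lists apart from all genes.

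Other routes of protein and chloroplast breakdown were read in the same way. Of 37 genes matched by symbol as 26S proteasome 3 rose (OsPBE1, OsPBD1 and OSRPT6, by 1.27 to 1.46) and OsRpn6 fell in APO (-1.29 ± 0.39). Among all genes tested in APO 6.8% rose and 7.6% fell, so these few proteasome calls do not set that list apart. Of 16 tested genes matched as vacuolar proteases and pumps 1 rose, OsVPE3, named as a vacuolar processing enzyme, which activates other vacuolar proteins by cutting them. It had 148 and 185 nuclear-scaled TPM in APO drought 2 and 3, against 36.7 and 19.8 in APO control 1 and 2 (2.57 ± 0.44, limma adjusted p = 0.00385). The 2 that fell in that list, CP24 and CP29, bear the names of photosystem antenna proteins and met the pattern by their symbols. Of 12 genes for leaf senescence 4 rose and 1 fell. Those that rose included OsPAO (2.54 ± 0.49), SGR (3.57 ± 0.72) and NAC2 (2.49 ± 0.51), of which OsPAO and SGR act in chlorophyll breakdown, and OsSAG13 fell (-2.71 ± 0.57). The median log2 difference in APO was 1.59 for the senescence list, 0.18 for the proteasome list and -0.15 for the vacuolar list, beside -0.24 for all genes. In IR64 0 genes of these 6 lists were called, where 1.12% of all genes rose and 0.307% fell. Their medians there ran from -0.00 for endosomal sorting to 0.99 for senescence. With 12 libraries in nuclear-scaled TPM, 1 vacuolar gene fell and 0 others of the 6 lists were called in APO.

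The tissue label was read against leaf mesophyll genes, those for the small subunit of Rubisco, light-harvesting proteins and photosystem proteins. In APO 1 of 23 rose and 15 fell, beside 6.8 and 7.6% of all genes. Their summed level was 4354 to 5930 nuclear-scaled TPM in the 2 drought libraries tested, against 26212 to 39095 in the 2 control libraries. With the left-out libraries it reached 17472 in APO drought and went down to 19682 in APO control. In IR64 the sum was 15383 to 28863 in drought, against 30081 to 53582 in control, and 0 of the 23 were called. Markers of other tissues stayed low: 5 of 11 seed genes were at 0 in all 10 libraries and the rest summed to 40.9 to 147, 15 root genes summed to 22.3 to 280.0 with 0 called in APO and 1 (LSI6) lower in IR64 drought, and the only guard cell marker matched, SLAC1, ran from 0 to 47.8 and was not called in either cultivar. The fall of mesophyll transcripts moved with the rise of the 7 autophagy genes in APO, and its part in that rise was not tested.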

How the data were processed

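Polysome-bound mRNA of rice leaf was measured in 12 libraries. Per the submitters' processing notes, which give no role or order, the authors used HISAT2 2.1.0, StringTie 1.3.4 and DESeq2 2.11.38; the genome build is not given in the sources used here. The deposited tables, 1 per library, give coverage (a signal), FPKM and TPM per gene, all made by the authors. Deposited TPM of nuclear loci was rescaled to 1000000 per library. limma 3.58.1 in R 4.3.3 (1 mean per group, intensity trend, two-sided, Benjamini-Hochberg, adjusted p below 0.05) was fitted on log2(TPM + 1) to 10 libraries with at least 10% of TPM on nuclear loci, for genes with a mean of at least 1; differences on this scale understate changes of low genes. Deposited coverage served for depth, and deposited FPKM only for an index of relative depth. The procedure was run on simulated data with independent noise for each gene. That simulation held no library-wide differences, so it cannot speak to how the calls depend on single libraries. Count tests were not used, since no counts were. All members are accounted for; full values are given for members called in any comparison, the ATG8 paralogs, and the 3 highest and 3 lowest tested members by mean, and up to 4 called genes per related list. Members and lists were chosen with earlier results of these data known. Alternatives changed scaling, pseudocount, filter, error model, libraries and a replicate block; adding each left-out library singly was chosen after seeing the data. No gene sequence was used here.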

Additional observations from a re-analysis of the deposited data

How the results depend on the processing

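The count of 7 autophagy genes called in APO was 0 in deposited TPM of 12 libraries, 0 in nuclear-scaled TPM of 12 libraries and 0 with the library labelled APO drought 1 added. It was 1 in deposited TPM of the same 10 libraries (OsATG18d), 3 without the intensity trend and 4 without the filter, where 6.56, 12.97 and 8.74% of all genes were called, against 14.4% in the reported test. It stayed within 1.5 times at 8 with median-of-ratios factors, 6 with a pseudocount of 0.1, 8 with a minimum mean of 5, 8 with only the groups compared fitted, and 5 with APO control 3 added. OsATG18f turned to -0.0175 (deposited TPM, 12 libraries) and OsATG9a to -0.0527 (the library labelled APO drought 1 added). Leaving out single libraries gave 0 to 9 called in APO, 0 to 4 in IR64, 0 to 1 for the difference of effects, 0 to 3 between cultivars under drought and 0 to 2 in control. In IR64 the count was 2 in deposited TPM of 10 libraries (OsATG10b and OsATG8b, both lower), and 0 under the other alternatives that kept every library. For APO against IR64 under drought the count of 1 was 0 in deposited TPM of 12 and of 10 libraries, in nuclear-scaled TPM of 12 and with the library labelled APO drought 1 added, and 2 with median-of-ratios factors. With the replicate block the limma count was 1 in APO (OsATG9a, 1.88, adjusted p = 0.0365, 10.7% of all genes) and 0 in the other 4 comparisons. The numbers were not taken as pairs in the reported test. Deviations from group means correlated at -0.16 to 0.16 between same-numbered libraries, against -0.16 to 0.24 between others. With 2 tested libraries per APO group these deviations mirror each other (-0.0888 and 0.0888 for APO drought 2 with APO control 2 and 1), so the ranges cannot decide on pairing in APO. Rescaling moved the median of all genes in APO from -0.24 to -0.75 (deposited TPM, 12 libraries) or 0.02 (median-of-ratios), while the members' median lay 0.43 to 0.87 above it in these 5 scalings; in IR64 it lay -0.01 to 0.32 from it. The cause of these changes was not tested. Coverage limits the low members: 10 of 28 were under 1-fold coverage in APO drought 2 and 14 in IR64 drought 3.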
